A study of Homo sapiens with 2 samples.

Results

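The translation initiation and elongation factors are the proteins that start and extend polypeptide chains on the cytosolic ribosome. Here they are the 58 of 18377 measured genes whose platform symbol begins with EIF1 to EIF6, EEF1 or EEF2, without the EIF2AK kinases, and they were read by 65 of 28869 probes. Both samples were K562, an established human leukaemia cell line with the BCR-ABL1 fusion kinase, and both were treated for 6 h with 2 µM imatinib, which blocks this kinase. One culture was grown with erythropoietin (EPO), the red cell cytokine. The other carries a label that names no EPO and was taken as grown without it. No dose or duration of EPO is stated in the labels. Total RNA of each culture was read on 1 Affymetrix Gene ST array. Each of the 2 groups thus has 1 array, no difference below has a replicate check, and no test was possible. In bulk RNA, fewer cells of a type and less RNA per cell cannot be told apart.

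Initiation begins when eIF2, loaded with GTP and the initiator tRNA, joins the small ribosomal subunit together with eIF1, eIF1A, eIF3 and eIF5. eIF4E binds the mRNA cap, eIF4G bridges it to eIF3, and the helicase eIF4A with its partner eIF4B opens the leader for scanning. eIF2B reloads eIF2 with GTP, and phosphorylation of eIF2 by stress kinases blocks that step. After subunit joining by eIF5B, eEF1A delivers aminoacyl-tRNA and eEF2 moves the ribosome along the mRNA. In red cell precursors protein synthesis is tied to haem supply through the eIF2 kinase EIF2AK1.

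The deposited values were read as log2 deviations from a baseline subtracted from each probe. The base of 2 is an untested reading of the values, and every fold below rests on it. A value therefore carries no level, members cannot be ranked by abundance, and the identity of the cells could not be checked against marker levels. The difference between the arrays, with EPO minus without EPO, cancels the baseline. A gene was called higher or lower at a difference of at least 1 (2-fold), which is a rule of size and not a test. The median difference of all genes was -0.047. That of 482 genes of silent families (such as olfactory receptors, beta-defensins and keratin-associated proteins) was -0.33. For 185 genes of cellular machinery outside cytosolic translation it was 0.48. These were taken by symbol from the proteasome, mitochondrial ribosome, NADH dehydrogenase, RNA polymerase II and nuclear pore families, so the set includes mitochondrial ribosomal proteins. The array without EPO spread further from the baseline over all probes (SD 0.431 against 0.134 with EPO). Of the lymphoid markers 7 of 8 were measured, between -0.67 and -0.15, and of the monocyte and granulocyte markers 6 of 6, between -0.59 and 1.05 with only LYZ past 2-fold. The part of these shifts in the results was not tested.

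Many mRNAs of the translation machinery begin with a C followed by a run of pyrimidines, the 5′ terminal oligopyrimidine (TOP) start through which mTOR and LARP1 control their translation. RefSeq promoter windows (GRCh38.p14, 250 bases before to 50 after the start) matched 45 of the 58 members. The 13 without an entry were EEF1A2, EEF1AKMT1, EEF1AKMT3, EEF1D, EEF1DP3, EEF2KMT, EIF2S2, EIF3A, EIF3E, EIF3G, EIF3H, EIF3L and EIF4EBP1. A start was counted as TOP when its first base was C and the next 4 bases were each C or T, read on the gene's own strand at any of its listed starts. By that rule 13 of 45 members (28.9%) had one, against 36 of 52 ribosomal protein genes (69.2%) and 5.14% of all 27305 genes with an entry. The starts below are those of the 3 elongation members with a TOP start, of the 5 members past 2-fold and of EIF3F, a known TOP mRNA whose run is longer than that of EIF4B. Each runs from 8 bases before the start to 20 bases from it, and capitals mark the pyrimidine run from the first transcribed base.
EEF1A1 (chr6:73521013-73521040, minus strand): tgaacgttCTTTTTCgcaacgggtttgc
EEF1B2 (chr2:206159887-206159914, plus strand): cttcgggtCCTTTTTCCTCTCTTCagcg
EEF2 (chr19:3985444-3985471, minus strand): tcagcgttCTCTTCCgccgtcgtcgccg
EIF3M (chr11:32583823-32583850, plus strand): ccagttccCTTTTCCggtcggcgtggtc
EIF2A (chr3:150546779-150546806, plus strand): agcggtttCTCTTTCCgggacaacatgg
EIF4B (chr12:53006448-53006475, plus strand): atccgggtCTTTTgcgttctctttccct
EIF3F (chr11:7987329-7987356, plus strand): tccgcctcCTTCTTTCTCgacaagatgg
EIF2S1 (chr14:67360320-67360347, plus strand): ggttccgcatgcgcggtggagtgagcga
EIF4EBP2 (chr10:70404137-70404164, plus strand): cttcgcccgcttccggtcgtcgtcgtcg

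The TOP start, as counted by this rule, did not order the differences. The 13 members with such a start had a median difference of 0.53 (range -0.29 to 1.18), and the 32 without one 0.55 (range -0.17 to 1.20). Among the 13, the 3 elongation genes EEF1B2, EEF1A1 and EEF2 had a median of 0.046 and the 10 initiation genes 0.57. In a list of 9 members known as TOP mRNAs the median was 0.39, from -0.17 for EEF1B2 to 1.02 for EIF4B. Of this list, EEF1G did not meet the rule, and EEF1D, EIF3E and EIF3H had no promoter entry.

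The E-box CACGTG, a palindrome that reads the same on both strands and is bound by MYC and related factors, is the other motif searched. It stood in the window of 11 of 45 members (24.4%) against 8.77% of all genes with an entry. The sites are shown with 12 bases on each side for EIF4B, the member past 2-fold that held one, and for EIF4E, the cap-binding protein, which held 2. Capitals mark the E-box.
EIF4B (chr12:53006422-53006451, plus strand): gcccgctataatCACGTGattgcctcatcc
EIF4E (chr4:98929188-98929217, minus strand): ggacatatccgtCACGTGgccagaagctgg
EIF4E (chr4:98929341-98929370, minus strand): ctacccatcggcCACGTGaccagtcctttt

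Members with an E-box had a median difference of 0.56 and those without 0.55. A match is a description of the sequence and not of binding.

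As a whole, the translation factors lay above 0 in the difference. Their median difference was 0.54 (1.45-fold), or 0.055 with the machinery median subtracted, and 51 of 58 lay above 0 against 45.4% of all genes. At least 2-fold higher were 5 of 58 (8.62%), near the 6.19% of all genes, and 0 of 58 were at least 2-fold lower, against 0.898%. At 1.5-fold the count was 23 of 58 (39.7%) against 18.1% of all genes. The 185 other machinery genes gave 41.6% at 1.5-fold and 16.8% at 2-fold (31 genes). The share of the factors was thus close to that of other machinery at 1.5-fold and below it at 2-fold. With the machinery median subtracted, 33 members lay above 0, 25 below and 0 past 2-fold. With the silent-family median subtracted, 18 were past 2-fold.

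**Figure D1:**
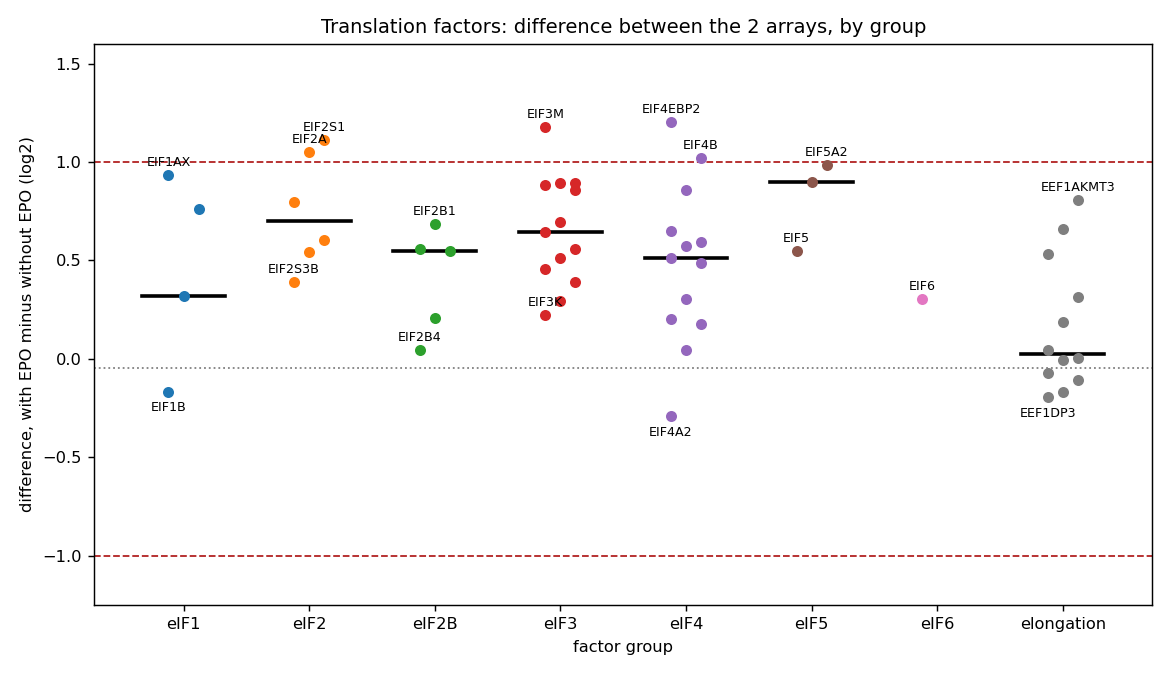
Difference between the arrays (log2, with EPO minus without EPO) for 57 members by factor group, with EIF1AY left out. Each point is 1 gene, and black bars are group medians, with EIF1AY counted in that of eIF1. The dotted line is the median of all genes (-0.047) and dashed lines mark 2-fold. The eIF2, eIF3 and eIF5 medians lie between 0.64 and 0.90, and the elongation median lies at 0.025.

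The split of a difference between the arrays depends on the baseline, which is unknown. Without EPO 53 of 58 members stood below the baseline, against 45.2% of all genes, with values from -1.15 to 0.34 and a median of -0.39. With EPO 48 of 58 stood above it, with values from -0.12 to 0.36 and a median of 0.064, against -0.0012 over all genes. The highest value with EPO belonged to EIF2B3, and the lowest without EPO to EIF4EBP2. The value without EPO was the larger deviation in 48 of 58 members, a share like the 82.6% of all genes.

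**Figure D2:**
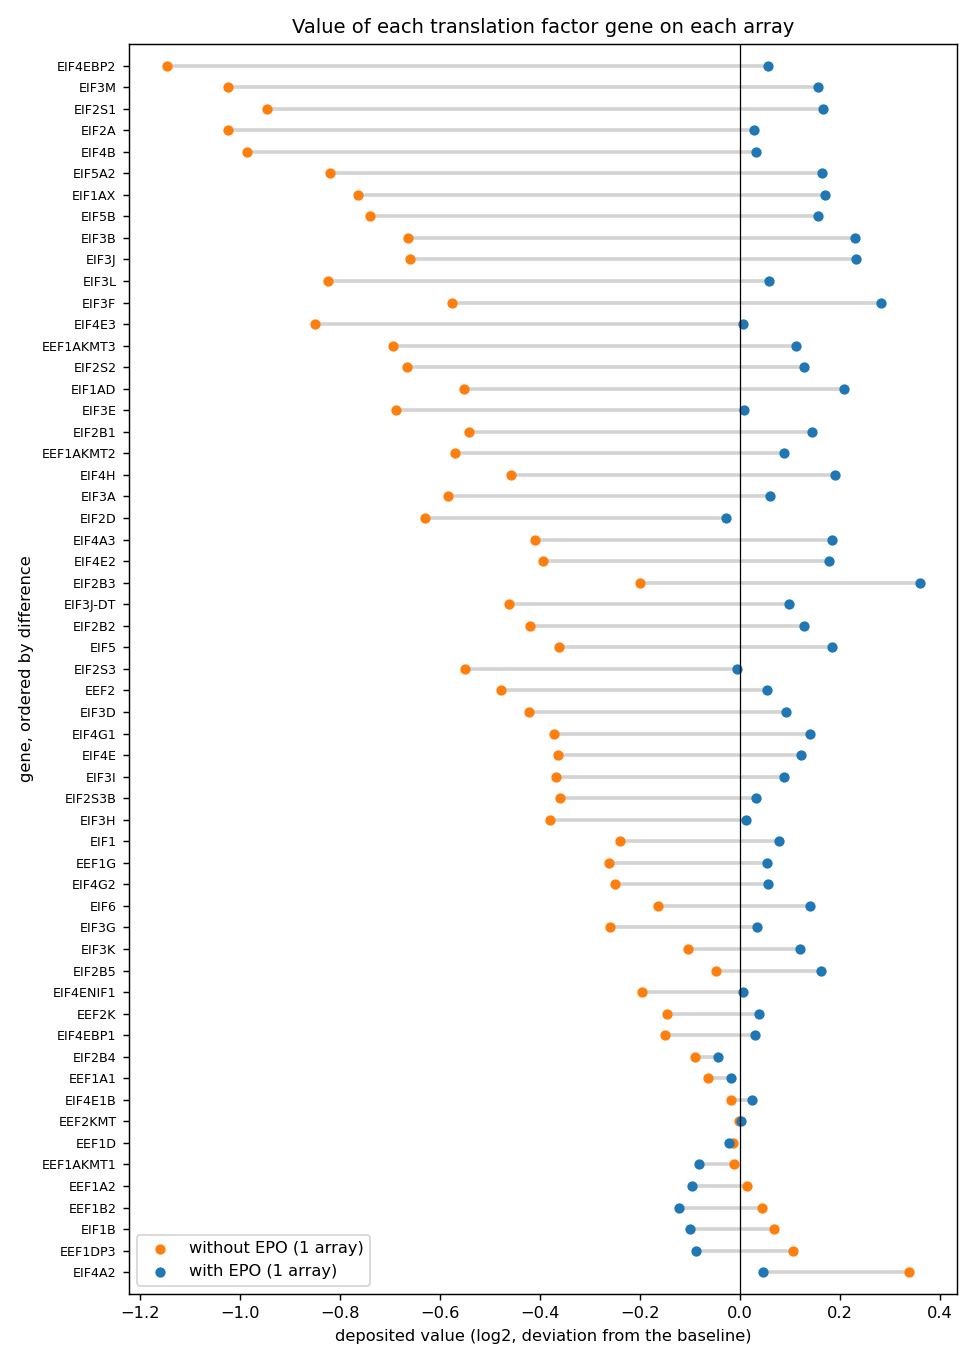
Deposited value (log2, deviation from the baseline) of 57 members on each array, with EIF1AY left out. Genes are ordered by difference, and the grey line joins the arrays. Values with EPO stay between -0.12 and 0.36, while values without EPO reach -1.15.

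The eIF2 group, which brings the initiator tRNA, had a median of 0.70 over 6 genes. It held 2 of the 5 members past 2-fold, which is 33.3% of the group against 6.19% of all genes. Both of them, EIF2S1 and EIF2A, were within 2-fold with the machinery median subtracted (0.63 and 0.57). EIF2S1, the alpha subunit and the target of the stress kinases, had a value of 0.17 with EPO and -0.95 without, a difference of 1.11 (2.16-fold). EIF2S2, the beta subunit, had 0.13 and -0.67, a difference of 0.80. EIF2S3, the GTP-binding gamma subunit, had -0.0072 and -0.55, a difference of 0.54. The 3 subunits thus ran in the same direction, with the phosphorylated subunit the furthest apart. EIF2S3B, a close copy of the gamma subunit gene whose reads on an array are hard to separate from it, differed by 0.39. A further pair of genes can bring initiator tRNA to the ribosome outside the eIF2 complex. EIF2A, one of them, had 0.028 with EPO and -1.02 without, a difference of 1.05 (2.07-fold). EIF2D, the other, differed by 0.60.

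The 5 subunits of eIF2B, the exchange factor that recycles eIF2, had a median difference of 0.55 and none was past 2-fold. Of the regulatory subunits that read eIF2 phosphorylation, EIF2B1 differed by 0.69, EIF2B2 by 0.55 and EIF2B4 by 0.047. Of the catalytic subunits, EIF2B3 differed by 0.56 and EIF2B5, which holds the exchange activity, by 0.21. EIF2B5 had 0.16 with EPO and -0.049 without. EIF2B4 and EIF2B5 therefore stood apart from the other 3 subunits, whose differences lay from 0.55 to 0.69.

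eIF3, the large scaffold on the small subunit, had 12 subunit genes measured on probes of their own, all above 0, with a median of 0.67. EIF3M alone was past 2-fold, with 0.16 with EPO and -1.02 without, a difference of 1.18 (2.27-fold). Of these 12 subunits, 7 have PCI or MPN domains and belong to the core of the complex. EIF3C was read only on shared probes and is not counted. The 7 ranged from 0.22 for EIF3K to 1.18 for EIF3M, with a median of 0.70. In that core EIF3L differed by 0.88, EIF3F by 0.86, EIF3E by 0.70, EIF3A by 0.64 and EIF3H by 0.39. EIF3K and EIF3L, neighbours in the complex, lay near opposite ends of this range. EIF3K had 0.12 with EPO and -0.10 without, and EIF3L had 0.058 and -0.82. Of the other 5 subunits, EIF3B, the scaffold of the peripheral module, differed by 0.89, while its partners EIF3I and EIF3G differed by 0.46 and 0.29. EIF3J, the loosely held subunit, differed by 0.89, and EIF3D, which can itself bind the cap of some mRNAs, by 0.51. The group as defined by symbol also holds EIF3J-DT, a divergent non-coding transcript beside EIF3J, at 0.56, and has a median of 0.64.

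The eIF4 group of 13 genes had a median of 0.51 and the widest range, from -0.29 to 1.20. EIF4EBP2, which holds eIF4E away from eIF4G when mTOR is inactive, had 0.055 with EPO and -1.15 without. Its difference of 1.20 (2.30-fold) was the largest of all 58 members. Its relative EIF4EBP1 had 0.029 and -0.15, a difference of 0.18. The transporter EIF4ENIF1, which also binds eIF4E, differed by 0.20. The eIF4E binding proteins were thus far apart from each other, with only EIF4EBP2 past 2-fold.

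EIF4B, the helper of the eIF4A helicase, was the other eIF4 member past 2-fold, with a mean value of 0.032 with EPO and -0.99 without. Its 3 probes differed by 0.95, 0.95 and 1.16, and their mean was 1.02 (2.03-fold). With the probe of smallest difference in place of the mean, EIF4B (0.95) was not past 2-fold. EIF4H, a related helper, differed by 0.64 and 0.65 on its probes. Among the cap-binding proteins, EIF4E had 0.12 with EPO and -0.36 without, a difference of 0.49. EIF4E2, which represses rather than promotes initiation on many mRNAs, differed by 0.57, EIF4E3 by 0.86 and EIF4E1B, a form known from oocytes, by 0.042. The scaffold EIF4G1 differed by 0.51 and EIF4G2, which lacks the eIF4E-binding region, by 0.31. EIF4A3, the helicase of the exon junction complex, differed by 0.59.

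EIF4A2, a paralog of the initiation helicase EIF4A1, was the lowest member of all, and its probes disagreed. The probe that lists its RefSeq transcript had 0.14 with EPO and -0.12 without, a difference of 0.26. The second probe, which lists only a single cDNA, had -0.052 and 0.79, a difference of -0.84. The mean of -0.29 therefore follows the second probe. EEF1D was the other gene with probes of opposite sign as deposited, at 0.24 and -0.26. Of the 58 members, 6 had more than 1 probe, and the median gap between a gene's highest and lowest probe was 0.15.

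The 5 genes of the eIF1 group, EIF1AY included, had a median of 0.32, which turned to -0.17 with the machinery median subtracted. EIF1AX, which encodes eIF1A, an aid to scanning, was the highest, with mean values of 0.17 with EPO and -0.76 without and a difference of 0.93 over 2 probes. EIF1, which guards start codon choice, had 0.077 and -0.24, a difference of 0.32. Its paralog EIF1B had -0.100 and 0.067, a difference of -0.17. EIF1 and EIF1B thus had opposite signs as deposited, but not with the machinery or the silent-family median subtracted. EIF1AD, a protein with an eIF1A-like domain, differed by 0.76. EIF1AY, the Y-linked copy of EIF1AX, entered the counts and medians and is not described singly. Without it the eIF1 median would lie midway between EIF1 (0.32) and EIF1AD (0.76). That is above the machinery median of 0.48, so the change of sign rests on counting EIF1AY.

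The eIF5 group had the highest median, 0.90, from 3 genes. EIF5A2, a form of the factor that carries the amino acid hypusine and relieves stalled ribosomes, had 0.16 with EPO and -0.82 without. Its difference of 0.98 lay just under 2-fold. EIF5B, the GTPase of subunit joining, had 0.16 and -0.74, a difference of 0.90. EIF5, which triggers GTP hydrolysis by eIF2, had 0.18 and -0.36, a difference of 0.55. With only 3 genes the median is the value of EIF5B. EIF6, which keeps the large subunit from joining too early, differed by 0.31.

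The elongation group differed least, with a median of 0.025 over 12 genes and 5 of them below 0. With the machinery median subtracted its median was -0.46. EEF1A1, the main carrier of aminoacyl-tRNA, had -0.018 with EPO and -0.064 without, and its probes differed by 0.044 and 0.047. EEF1A2, the form of muscle and neurons, had -0.096 and 0.014, a difference of -0.11. The exchange subunits of eEF1 spread around 0. EEF1B2 had -0.12 with EPO and 0.044 without, a difference of -0.17, while EEF1G had 0.054 and -0.26, a difference of 0.32. EEF1D averaged -0.0077. EEF2, the translocase, was the highest factor proper, with 0.054 with EPO and -0.48 without and a difference of 0.53 (1.45-fold).

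Of the 5 enzymes that modify elongation factors, 2 lay above the range of the factors. The methyltransferases EEF1AKMT3 and EEF1AKMT2 differed by 0.81 and 0.66, and they were the only 2 elongation members past 1.5-fold. That is 2 of 12 (16.7%), near the 18.1% of all genes. Another methyltransferase, EEF1AKMT1, differed by -0.070, and EEF2KMT by 0.0039. EEF2K, the kinase that inhibits eEF2, had 0.038 with EPO and -0.15 without, a difference of 0.18. The pseudogene EEF1DP3 stood at -0.19. Without the enzymes and the pseudogene, a choice made after the values were seen, the median of the 6 factors proper was 0.019.

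Set beside like genes, the initiation and elongation sides had medians near those of different sets. The 46 initiation members, which include EIF6 and the binding proteins, had a median of 0.56 with 44 above 0, and the 12 elongation members 0.025 with 7 above 0. Cytosolic ribosomal proteins, which elongation factors resemble in abundance and TOP control, had a median of 0.027 over 63 genes taken by symbol. Only 1 (1.59%), the RPL7-like gene RPL7L1, was at least 2-fold higher, against 6.19% of all genes. Aminoacyl-tRNA synthetases and their scaffold had a median of 0.91 over 20 of 22 genes, with 8 higher, against 6.19% of all genes, and 0 lower. With the machinery median subtracted, 1 synthetase was higher and the median was 0.42. KARS1, the lysine enzyme, was the highest of these at 1.69. The difference between these sets was not tested, since each rests on the same pair of arrays.

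**Figure D3:**
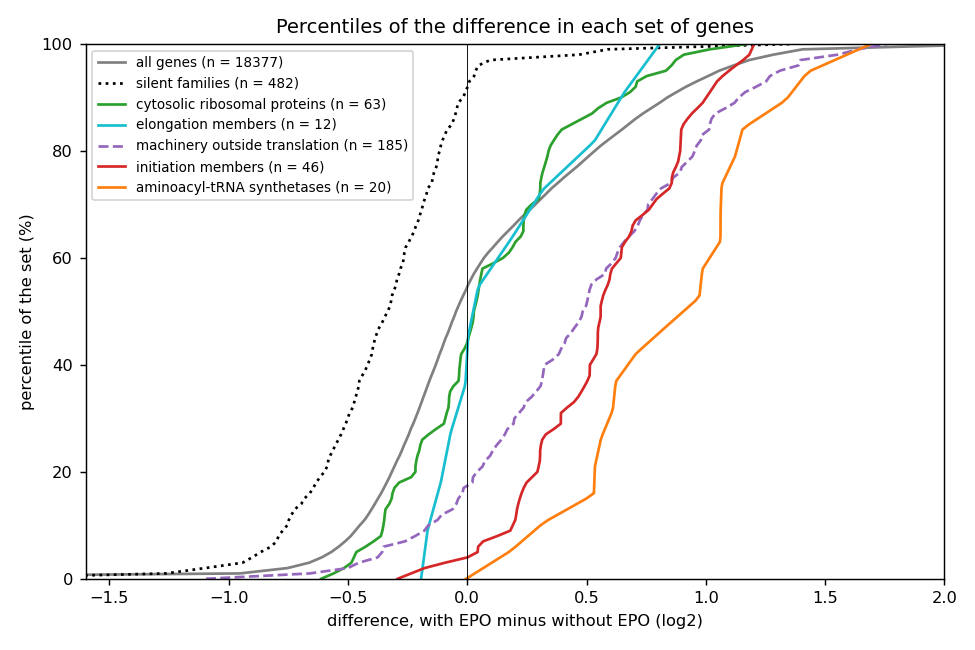
Percentiles of the difference (log2, with EPO minus without EPO) in 7 sets of genes. The elongation members and the ribosomal proteins have medians of 0.025 and 0.027, and the initiation median of 0.56 lies between those of the machinery genes (0.48) and the synthetases (0.91). The machinery genes include mitochondrial ribosomal proteins.

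Genes that act on or beside the factors also lay mostly above 0, in 56 of 63 cases, or 38 of 63 with the machinery median subtracted. Of the 63, which were measured in 7 lists, 14 (22.2%) were at least 2-fold higher and 1 lower, against 6.19% and 0.898% of all genes, with a median of 0.63. That subtraction left 1 higher and 2 lower and a median of 0.14. The lists were chosen with earlier results of these data known.

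The list of eIF2 kinases, phosphatases and their partners had a median of 0.86. Of its genes 5 of 13 (38.5%) were higher and 0 lower, against 6.19% and 0.898% of all genes. EIF2AK2, the kinase PKR that senses double-stranded RNA, had 0.089 with EPO and -1.07 without, a difference of 1.16 (2.24-fold). EIF2AK4, which senses uncharged tRNA, differed by 0.86, the haem-controlled EIF2AK1 by 0.57 and EIF2AK3, the kinase PERK of the endoplasmic reticulum, by 0.038. The 4 kinases thus spanned the range from 0.038 to past 2-fold. The phosphatase catalytic subunits PPP1CC and PPP1CB differed by 1.36 and 1.23. PPP1R15A and PPP1R15B, which direct that phosphatase to eIF2, stood at 0.094 and -0.12. The other genes past 2-fold were DNAJC3, an inhibitor of eIF2 kinases, at 1.08 and the adaptor NCK1 at 1.04.

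Regulators of mTORC1 and the cap had the lowest median of these lists, 0.31. Only 1 of 15 (6.67%) was higher, near the 6.19% of all genes. That gene was PDCD4, an inhibitor of eIF4A, at 1.12 (2.18-fold). MKNK1, a kinase of eIF4E, and RHEB, the activator of mTORC1, each differed by 0.74. MTOR itself stood at 0.14 and its partner RPTOR at -0.040, both within 2-fold.

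Accessory initiation factors had a median of 0.73 over 10 of 11 genes. PAIP1, which links the poly(A)-binding protein to initiation, stood at 1.20 and the helicase DDX3X at 1.10, and DENR, a factor of re-initiation, at 0.96. Termination and recycling genes had a median of 0.75 over 7 of 8, and they held the only related gene past 2-fold in the other direction. ABCE1, which splits ribosomes after termination, had a difference of 1.52 (2.87-fold), the release factor GSPT1 1.09 and the rescue GTPase HBS1L 1.02. PELO, the partner of HBS1L in ribosome rescue, stood at -1.03 (2.04-fold lower). As deposited, the rescue pair lay past 2-fold on opposite sides. PELO was within 2-fold with the all-gene or the silent-family median subtracted, and HBS1L with the machinery median subtracted.

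Enzymes that modify factors had a median of 0.63 over 8 of 9 genes. The pair that makes hypusine on eIF5A split: DHPS, the first enzyme, stood at 1.26 (2.40-fold) and DOHH, the second, at -0.53. DPH5, an enzyme of the diphthamide residue of eEF2, stood at 1.40, and DPH6 at 0.96. Mitochondrial translation factors had a median of 0.51 over 8 of 9, with only MTIF2, the mitochondrial initiation factor, past 2-fold at 1.36. MTRF1 and MTIF3 stood at 0.79 and 0.69, and the mitochondrial elongation factor TUFM at 0.40. Of the selenocysteine pair, SECISBP2 stood at 0.80 and EEFSEC at 0.064.

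**Figure D4:**
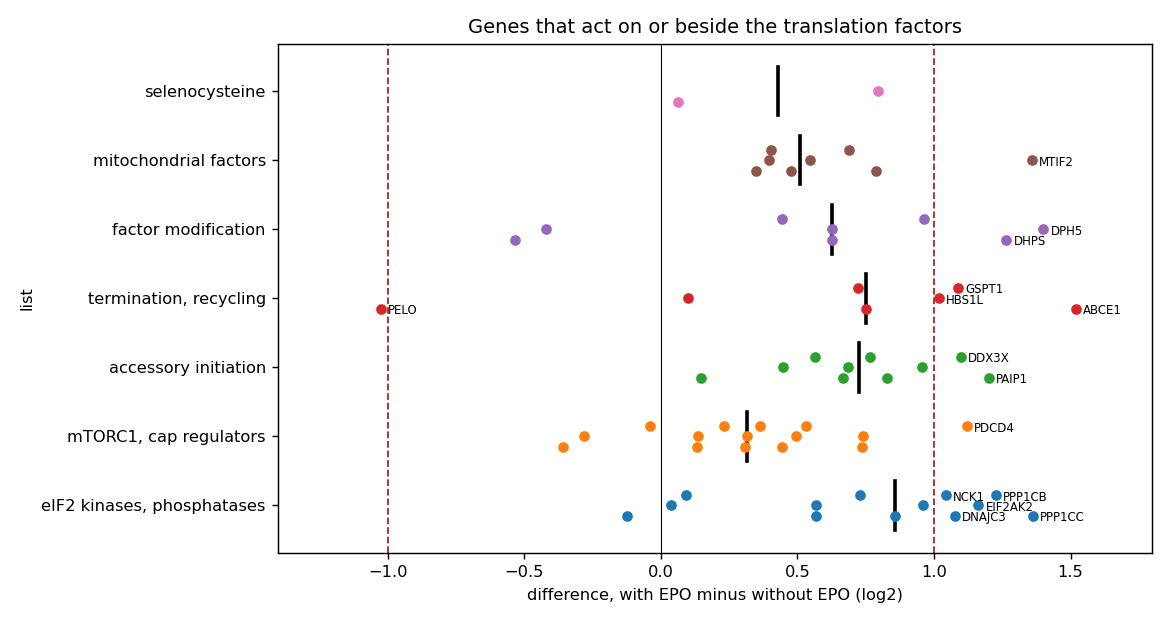
Difference (log2, with EPO minus without EPO) of 63 genes in 7 lists of genes that act on or beside the factors. Each point is 1 gene, black bars are list medians, dashed lines mark 2-fold and genes past it are named. Of the 63, 14 lie at or above 1 and PELO alone lies below -1.

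Several factor genes carry small nucleolar or Cajal body RNAs inside their bounds, mostly in introns, and these RNAs guide the modification of ribosomal and spliceosomal RNA. This comparison was chosen after the values were seen. RefSeq places 17 such RNAs inside the members, EIF4A1 included, and 9 of them had a probe. All 9 stood below their host in the difference, 8 of 9 lay below 0 and 4 were at least 2-fold lower, or 3 with the silent-family median subtracted. Of the 175 small nucleolar RNA genes on probes of their own, 21.1% were at least 2-fold lower and the median was -0.31.

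The hosts with RNAs past 2-fold were EEF1B2, EIF4A1 and EIF4A2. SNORA41 in EEF1B2 had -0.30 with EPO and 1.20 without, a difference of -1.50 (2.83-fold lower), while its host stood at -0.17. A second RNA of EEF1B2, SNORD51, differed by -0.61. In EIF4A1, which has no probe of its own, the probe shared with the readthrough transcript SENP3-EIF4A1 had 0.051 and -0.64, a difference of 0.69. The probe shared with SNORA48 had -0.26 and 1.28 instead, a difference of -1.54, and SNORA67 in the same gene differed by -1.30. The probe shared by SNORA4 and EIF4A2 differed by -1.54, next to 0.26 for the transcript probe of EIF4A2. In these 3 genes the small RNAs were lower with EPO under each scaling tried.

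Others lay nearer 0. SNORD37 in EEF2 differed by -0.43, SCARNA9L in EIF1AX by -0.14, SNORA28 in EIF5 by -0.015 and SNORA19 in EIF3A by 0.054. Their hosts stood between 0.53 and 0.93.

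**Figure D5:**
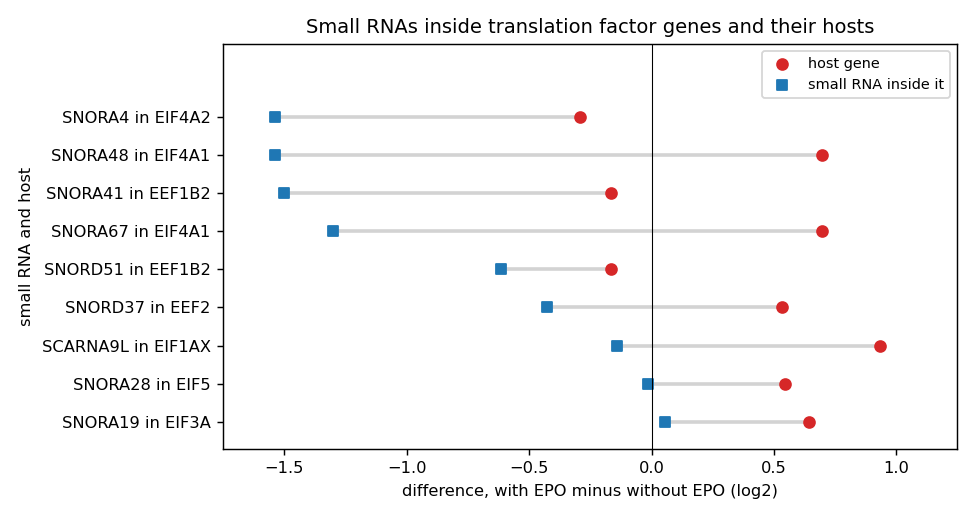
Difference (log2, with EPO minus without EPO) of 9 small RNAs (squares) and of the factor genes that hold them (circles), joined by grey lines. Every square lies left of its circle, and 4 squares lie below -1. The circle of EIF4A2 is the mean of its 2 probes (-0.29).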

How the data were processed

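The authors deposited 1 table of log2 values, 28869 probes by 2 arrays. The values were read as log2 and as centred per probe. They ran from -1.84 to 0.74 with EPO and from -1.90 to 3.35 without, and column medians were -0.0089 and 0.052. In 631 of the 28869 probes the arrays mirrored each other around 0 to within 1e-05. Background correction, normalization, software and log base are not stated in the labels. Of the probes, 19310 carried 1 gene symbol in the platform annotation, 1752 several and 7807 none, and 19279 of the first were named through RefSeq (GRCh38.p14) by Entrez ID. The mean over probes was taken for each of 18377 genes. All 58 members kept their symbol. Every member may be named, and of each related list the genes past 2-fold and the 3 largest differences. Others in those lists, such as MTOR and PPP1R15A, were named after their values were seen. Members and lists were chosen with earlier results of these data known. The number of arrays limits the precision. Alternatives were other scalings, probe rules, thresholds, members and the mean. The work was done in Python 3.11.15 with pandas 2.3.3. The calling code was run on simulated data with planted differences well past the threshold and little noise. Such a run does not check calls near 2-fold.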

Additional observations from a re-analysis of the deposited data

How the results depend on the processing

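Subtracting the machinery or the silent-family median moved the median of all members and of every group. Subtracting the all-gene median moved each of them by at most 0.1. The cause of the shift between the arrays was not tested. With the machinery median subtracted, the members past 2-fold went from 5 to 0. The medians were then 0.055 for all members, -0.17 for eIF1, 0.21 for eIF2, 0.063 for eIF2B and 0.16 for eIF3. Those of eIF4, eIF5 and elongation were 0.029, 0.41 and -0.46. The medians of eIF1 and elongation thus changed sign, that of eIF1 only with EIF1AY counted. With the silent-family median subtracted, 18 members were past 2-fold and the medians were 0.87 for all members, 0.65 for eIF1, 1.03 for eIF2, 0.88 for eIF2B, 0.98 for eIF3, 0.85 for eIF4, 1.23 for eIF5 and 0.36 for elongation. At 1.5-fold 23 members were higher and at 3-fold 0. The mean was 0.41 for eIF2B and 0.17 for elongation. The other 63 values moved by at most 0.1, or by at most 1.5 times for counts. Among them, eIF3 without EIF3J-DT, eIF4 without the eIF4E binding proteins and elongation without enzymes and pseudogene were chosen after seeing the data. The order of the groups is the same under each scaling, which subtracts 1 number from all genes. No paired analysis was possible because each group has 1 array. Signal over background could not be read from centred values, and leaving out an array was not possible.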

Other observations

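Some factors were read only by probes that list several genes, and these entered no group. The 3 probes shared by EIF5A and its copy EIF5AL1 differed by 0.80, 0.83 and 0.83 (log2, with EPO minus without EPO), beside 0.98 for EIF5A2. The 2 probes shared by EIF3C and EIF3CL each differed by 0.49, inside the range of the other eIF3 subunits. EIF4EBP3, on a probe shared with ANKHD1 and their readthrough transcript, differed by 0.13, near the 0.18 of EIF4EBP1. The 3 probes that list EEF2KMT beside members of its FAM86 family differed by 0.26, 0.15 and -0.088.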
